A study of Mus musculus with 22 samples.

Results

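Untreated C2C12 myoblasts were compared with untreated NIH3T3 fibroblasts, using 4 of the 22 libraries of a mouse study of the 3' end processing factor PCF11. The libraries were chosen by their titles: 2 of untreated C2C12 total RNA and 2 of untreated NIH3T3 total RNA, each made by 3'READS, a method that sequences the ends of poly(A)+ RNA and so counts reads at cleavage and polyadenylation sites. C2C12 is an established line of mouse muscle precursor cells that proliferates as myoblasts and can be differentiated into myotubes. NIH3T3 is an established line of mouse embryonic fibroblasts. The labels give both the strain C57BL/6 and call both untreated, as the controls of separate siPcf11 experiments. The strain is copied from the labels and was not checked, so a shared genetic background of the lines is not established here. The C2C12 titles call these libraries input, beside libraries titled 4sU (4-thiouridine, a label of newly made RNA), and the NIH3T3 titles do not. Whether the input cells had been labelled is not said in the titles. The lines were handled as separate experiments, so that cell line and experiment cannot be told apart in any value below. Further libraries of the same lines were set beside them: 2 C2C12 and 2 NIH3T3 libraries after siPcf11 (small interfering RNA against Pcf11), and 2 of proliferating C2C12 cells from the study's differentiation series.

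Most mammalian genes carry more than 1 polyadenylation site, and the choice among them (alternative polyadenylation) sets the length of the 3' untranslated region or, with intronic sites, truncates the transcript. Longer untranslated regions carry more binding sites for microRNAs and RNA-binding proteins. Use of distal sites is known to rise as C2C12 cells differentiate, and PCF11 is a subunit of the cleavage machinery with a role in the termination of transcription. The deposited tables give sites by chromosome, strand and position on mouse build mm9 without gene names, and no annotation of that build was used here. Results are therefore given by position, without statements on genes, exons or untranslated regions, and no list of myoblast or fibroblast markers was checked against the labels. For the same reason the level of Pcf11 after siPcf11 was not checked.

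The untreated C2C12 libraries held 2265023 and 2476170 reads and the NIH3T3 libraries 3142949 and 3331090. The 6 further libraries held from 1887532 to 4055310 reads. The labels do not say whether the 2 libraries of a line stem from separate cultures. The p-values therefore rest on differences among libraries that may be purely technical. The median absolute log2 ratio between the 2 libraries of a line was 0.20 in C2C12 and 0.24 in NIH3T3. The siPcf11 NIH3T3 libraries stood apart from the rest, with a ratio of 0.48 between replicates and a chi-square of 18.5 per degree of freedom against 2.26 to 3.53 in the other groups. The listed positions differed between the experiments on the lines. Of 13146 positions with at least 10 reads in each C2C12 library, 82.6% were listed at the identical position in NIH3T3, 14.0% had an NIH3T3 position within 24 nt and 3.42% had none that near. By contrast, 99.95% were listed identically in the proliferating C2C12 series. Positions within 24 nt were therefore merged into 1 site, and sites less than 5 kb apart on a strand were chained into site groups, which stand in for genes. A site group can hold more than 1 gene, and 1 gene can be split over several groups. This gave 43514 sites in 22910 site groups.

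The lines differed in the level of most site groups. Of 13324 site groups tested, 10684 differed between the lines at an adjusted p under 0.05 (80.2%; edgeR's quasi-likelihood test with Benjamini-Hochberg adjustment), with 6193 higher (46.5%) and 4491 lower (33.7%) in NIH3T3. At least 2-fold differences were found for 5190 higher (39%) and 3380 lower (25.4%) site groups, and at least 8-fold differences for 3026 and 1011. The median absolute log2 fold change was 1.54. The median signed log2 fold change was 0.33, and 0.19 when libraries were scaled by their totals alone, so that the split became 5864 higher and 4883 lower. In bulk RNA, fewer cells expressing a gene and less of its RNA per cell cannot be told apart. The excess of higher site groups lay among those with few reads in C2C12. Among 3206 site groups below 1 CPM (read counts scaled to a fixed library total) in the lower line, 2525 were higher in NIH3T3 and 681 lower. Such groups passed the filter on low counts only through the line in which they were high, and 100% of them were called. These 2 numbers thus describe the filtered set and are no test. The 10684 calls and the 2-fold counts above include all of these groups, and the 8-fold counts part of them. With 1 to 10 CPM in the lower line, 75.4% of site groups were called. The share was 71.8% at 10 to 100 CPM and 79.1% at 100 CPM or more. Among 1117 site groups with at least 100 CPM in both lines, 463 were higher and 420 lower, and 31.2% differed by at least 2-fold. Over the 7876 site groups with at least 5 CPM in both lines the median log2 fold change was -0.07, with 2687 higher and 2977 lower in NIH3T3.

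**Figure D1:**
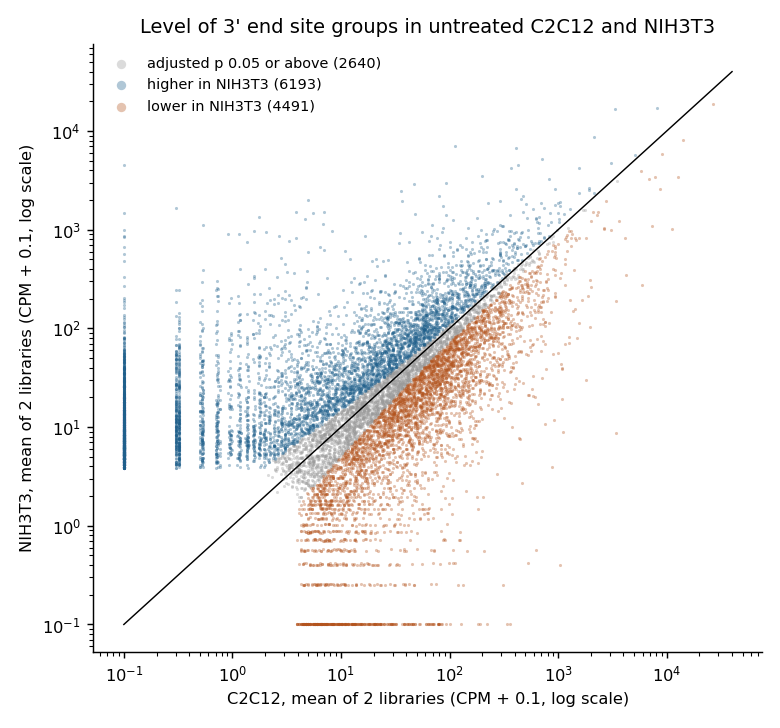
Mean level of each of 13324 site groups tested in untreated C2C12 (horizontal, CPM + 0.1, log scale) and NIH3T3 (vertical, same scale), n = 2 libraries a line. Blue points (6193) were higher and brown points (4491) lower in NIH3T3 at an adjusted p under 0.05, grey points were not called, and the columns of points at the left edge are site groups with few or no C2C12 reads.

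The difference between lines was larger than that between experiments on 1 line. Proliferating C2C12 cells of the differentiation series, set against the same C2C12 controls, differed in 2083 of 10537 site groups (19.8%), 939 higher (8.91%) and 1144 lower (10.9%). Their median absolute log2 fold change was 0.29, against 1.54 between the lines, and 541 site groups (5.13%) differed by at least 2-fold. The 1.54 includes the 3206 site groups near zero in 1 line, whose median was 7.14. Between the lines the median was 0.86 for site groups at 10 to 100 CPM in the lower line and 0.63 for those at 100 CPM or more. Between the C2C12 experiments, the count of 2083 fell when the first C2C12 control library was left out. When these proliferating cells took the place of the C2C12 controls, 11201 of 13918 site groups (80.5%) differed, 6494 higher (46.7%) and 4707 lower (33.8%) in NIH3T3. These comparisons share libraries and are given side by side only. The C2C12 experiments differ from the lines in a further way. Of the C2C12 control positions with at least 10 reads in each library, 99.95% were listed identically in the proliferating series, against 82.6% in NIH3T3.

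The same contrast of lines in the siPcf11 libraries shares no library with that of the untreated ones. There, 8764 of 12790 site groups (68.5%) differed, 5291 higher (41.4%) and 3473 lower (27.2%) in NIH3T3. Of 11988 site groups tested in both, 4467 were higher and 2863 lower in NIH3T3 both times, and 91 were called in opposite directions. The shared calls made up 76.0% of those in untreated cells and 90.4% of those after siPcf11. Across these site groups the log2 fold changes had a Pearson's r of 0.95 and a Spearman's rho of 0.93. Among them are site groups near zero in 1 line, which pass each filter only through the other line. They can raise the shared calls and both correlations, and values without them were not computed. Site groups are not independent replicates, and both contrasts share the lines, their position lists and the separation of experiments. A test of the difference between the contrasts (the interaction of line and siPcf11, edgeR, adjusted p under 0.05) called 537 of 14524 site groups (3.7%). An unadjusted p under 0.05 was found for 2784 of them.

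Many site groups were read in only 1 line. Of 15995 site groups with at least 1 CPM in each NIH3T3 library, 4140 (25.9%) had no read in either C2C12 library. These 4140 held 3.91% of all NIH3T3 reads. Of 12293 such groups in C2C12, 890 (7.24%) had no NIH3T3 read and held 0.83% of reads. Between C2C12 experiments the numbers were 70 of 12293 (0.57%) and 13 of 12071 (0.11%). The NIH3T3-only groups were mostly low, with a median of 3.69 CPM and 59 groups at 50 CPM or more, while 29 C2C12-only groups reached 50 CPM. Of the NIH3T3-only groups, 95.8% were single sites, against 53.6% of all NIH3T3 groups at that level. Of the C2C12-only groups, 80.7% were single sites, against 39.1% of all C2C12 groups. The 4 further C2C12 libraries also had no read at 3082 of the 4140 NIH3T3-only groups. The siPcf11 NIH3T3 libraries had none at 768 of the 890 C2C12-only groups.

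Site groups read in 1 line also lay farther from site groups read in both lines than the latter lay from each other. The median distance to the next site group read in both lines was 157.6 kb for NIH3T3-only groups, 57.9 kb for C2C12-only groups and 29.7 kb for groups read in both. More than 100 kb separated 58.9%, 36.2% and 21.2% of them, respectively, from such a neighbour. Strands were used evenly, with 2050 NIH3T3-only groups on the plus and 2090 on the minus strand. Chromosome X held 6.93% of the NIH3T3-only groups, 3.37% of the C2C12-only groups and 3.46% of those read in both. The untreated libraries of 4T1, a mouse mammary carcinoma line of the same study, had a read within 24 nt at 24.6% of NIH3T3-only groups, 51.2% of C2C12-only groups and 96.3% of groups read in both. Single sites far from groups read in both lines thus moved together with the higher number of NIH3T3-only groups. Whether the reads at these positions mark cleavage sites of transcripts, priming at A-rich stretches inside RNA or genomic DNA was not tested, since no genome sequence of build mm9 was used here. The 4140 groups and the excess of higher calls in NIH3T3 therefore count listed positions, and not transcripts known to end there. These splits, the runs and the chromosome medians below were chosen after the values had been seen.

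The 10 site groups with the largest fitted rise in NIH3T3 were at or near zero in C2C12. They were picked by that rise and passed the filter on low counts only through NIH3T3, so no p-value is printed for them. The highest was chr7:53967368-53967399 on the minus strand, 2 sites with 4452 and 4597 CPM in the NIH3T3 libraries and no read in either untreated C2C12 library. Counting 3 reads over both C2C12 libraries as the floor, it was at least 7154-fold higher in NIH3T3. After siPcf11 it had 6750 and 6872 CPM in NIH3T3 and none in C2C12, and 1 of the 2 proliferating C2C12 libraries had 0.25 CPM. Lines did not overlap at this site group in any library. The group chr9:43855039-43856662 (plus strand, 2 sites) had 1584 and 1385 CPM in NIH3T3 and no read in any of the 6 C2C12 libraries. It was at least 2341-fold higher in untreated NIH3T3 and stood at 640 and 391 CPM after siPcf11. The single site chr13:73455601 (plus strand) had 1000 and 1007 CPM in NIH3T3 and none in the 6 C2C12 libraries, and was at least 1587-fold higher.

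The group chr1:40522260-40525061 (plus strand) had 898 and 832 CPM in NIH3T3 and no read in untreated C2C12, at least a 1366-fold difference. The group chr12:110698726-110701546 (plus strand) differed from most of the others in holding 6 sites. It had 540 and 606 CPM in NIH3T3, no read in the 6 C2C12 libraries or in 4T1, and lay 600.5 kb from the next site group read in both lines. The single site chr5:82766748 (plus strand) had 1744 and 1541 CPM in NIH3T3 against 1 read in C2C12, a ratio of 7774 with a 95% counting interval from 1395 to 307077. Both proliferating C2C12 libraries had reads there, at 1.84 and 0.99 CPM. The single site chr5:83826911 (minus strand) lay 2497 kb from its nearest neighbour read in both lines and had 298 and 369 CPM in NIH3T3. It had no read in untreated C2C12, but 2.12 and 0.41 CPM in the siPcf11 C2C12 libraries. The remaining groups of this set were the single sites chr13:112383466 and chr17:57343392 (both minus strand), read in 4T1 as well, and chr8:112099029 (minus strand), which was not. Each was at least 767-fold higher in NIH3T3.

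The 10 largest fitted rises in C2C12 started from lower levels. They too were picked by size and passed the filter only through C2C12, so no p-value between lines is printed for them. At chr18:70396373-70400082 (minus strand, 3 sites) the C2C12 libraries had 334 and 380 CPM and the NIH3T3 libraries no read, at least a 773-fold difference. The further C2C12 libraries had 282 to 295 CPM there and the siPcf11 NIH3T3 libraries none. At chr2:92794230-92796215 (plus strand, 7 sites) the level was higher, 1036 and 1032 CPM in C2C12 against 0 and 0.60 CPM in NIH3T3. The ratio was 3347 with a 95% counting interval from 926 to 27644. The siPcf11 NIH3T3 libraries had no read at this group, and 4T1 had 110.1 and 109.3 CPM. The group chr4:134732059-134733897 (plus strand, 3 sites) had 346 and 334 CPM in C2C12 and none in NIH3T3, at least a 733-fold difference. Its level varied between C2C12 experiments, from 85.8 and 90.8 CPM after siPcf11 to 417 and 433 CPM in the proliferating series.

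The group chr4:8068638-8072946 (minus strand, 6 sites) had 211 and 227 CPM in C2C12 and lay 465.2 kb from the next site group read in both lines. It was at least 473-fold higher than in NIH3T3. The group chr9:14561036-14562715 (minus strand, 4 sites) had 129 and 124 CPM in the C2C12 controls and 51.2 and 51.8 CPM in the proliferating series. This was a log2 fold change of -1.34 between experiments on 1 line (adjusted p = 4.13e-08, edgeR), beside an at least 273-fold difference between lines. The group chrX:100655708-100661433 (minus strand, 3 sites) had 83.9 and 87.6 CPM in C2C12 controls and 161 and 178 CPM after siPcf11. The remaining 4 groups were chr1:121312040-121312271 (minus strand), chr2:122420208 (minus strand), chr11:97897937 (minus strand) and chr5:136365432 (plus strand). They were at least 391-fold, 414-fold, 218-fold and 200.3-fold higher in C2C12. In all 10 groups, every C2C12 library lay above every NIH3T3 library.

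**Figure D2:**
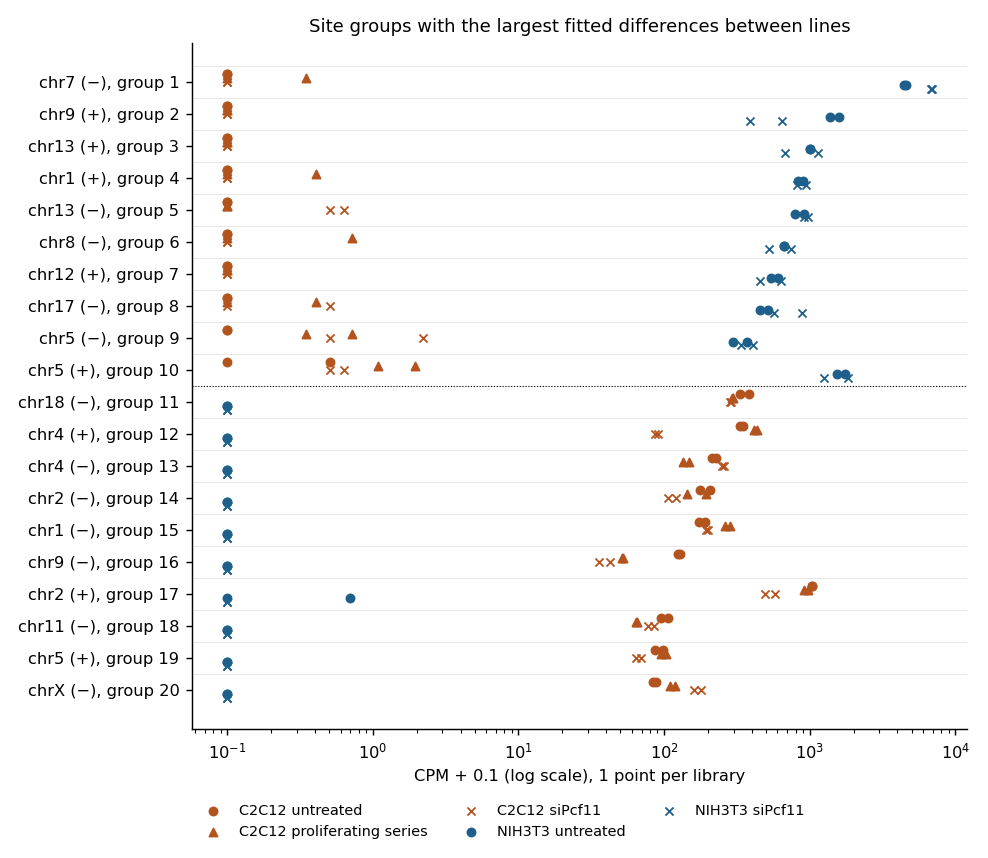
Level of the 20 site groups with the largest fitted differences (rows, by chromosome and strand, in the order in which each direction was ranked) in each of 10 libraries (points, CPM + 0.1 on a log scale, so that 0.1 is no read). Groups above the dotted line were higher in NIH3T3 (blue) and those below it in C2C12 (brown), and no library of one line overlapped a library of the other.

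The most read site groups were read in both lines. After the mitochondrial plus strand, the most read group in C2C12 was chr15:76731735-76737853 (plus strand, 9 sites), with 14185 and 14090 CPM against 8131 and 8273 CPM in NIH3T3, a log2 fold change of -0.65 (SE 0.09, adjusted p = 7.5e-09, edgeR). It was also among the 5 most read groups of NIH3T3. The group chr4:3759647-3762220 (minus strand) had 13130 and 12350 CPM in C2C12 and 3700 and 3082 CPM in NIH3T3, a log2 fold change of -1.77 (SE 0.10). At chr5:104865465-104870461 (plus strand, 11 sites) C2C12 had 10630 and 11889 CPM and NIH3T3 767 and 1266 CPM, a log2 fold change of -3.34 (SE 0.12, adjusted p = 4.42e-34, edgeR). The siPcf11 NIH3T3 libraries had 2341 and 4016 CPM there, above both untreated ones. In NIH3T3 the group chr7:133936623-133940109 (minus strand) had 17093 and 16308 CPM against 3543 and 3131 CPM in C2C12, a log2 fold change of 2.46 (SE 0.10). The single site chr2:179993149 (plus strand) had 8583 and 8762 CPM against 2252 and 2065 CPM, a log2 fold change of 2.14 (SE 0.10).

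The neighbouring groups chr3:90406625-90409964 and chr3:90415702-90419345 on the plus strand differed in opposite directions. The upstream group had 9063 and 9177 CPM in C2C12 and 5982 and 5648 CPM in NIH3T3, a log2 fold change of -0.51 (SE 0.09, adjusted p = 2e-06, edgeR). The downstream group had 8554 and 7734 CPM in C2C12 and 17566 and 16414 CPM in NIH3T3, a log2 fold change of 1.20 (SE 0.10, adjusted p = 1.38e-17, edgeR). When gaps of up to 10 kb were bridged, these became 1 group with a log2 fold change of 0.53. After siPcf11 the downstream group did not pass the test between lines (log2 fold change 0.20, adjusted p = 0.597, edgeR). The interaction of line and siPcf11 at this downstream group was -1.02 and was not called (adjusted p = 0.0776, edgeR). Its siPcf11 NIH3T3 libraries had 15440 and 9217 CPM, a wider spread than in the other pairs of libraries.

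Reads on the mitochondrial genome differed by strand. The minus strand had 6509 and 8115 CPM in C2C12 and 1039 and 1161 CPM in NIH3T3, a log2 fold change of -2.60 (SE 0.11, adjusted p = 7.85e-32, edgeR). All 6 C2C12 libraries, at 4902 to 8115 CPM, lay above all 4 NIH3T3 libraries, at 795 to 1161 CPM. The plus strand, on which most mitochondrial reads fell, had 25256 and 27909 CPM in C2C12 and 18886 and 19021 CPM in NIH3T3, a log2 fold change of -0.35 (SE 0.09, adjusted p = 0.000533, edgeR). With gaps of at most 2 kb or sites merged within 50 nt, the group set against it held other mitochondrial sites. Its log2 fold change was 0.12, which was not called (adjusted p = 0.243, edgeR) and is not that of the strand. Over all plus-strand positions, mitochondrial reads made up 2.53% and 2.79% in C2C12 and 1.89% and 1.90% in NIH3T3, whatever the grouping. The plus-strand group as first given lost its call (log2 fold change -0.37, adjusted p = 0.144, edgeR) with the siPcf11 libraries in the same fit. Chromosome Y had 8 reads in each untreated C2C12 library and 75 and 85 reads in the NIH3T3 libraries. The further libraries had 2 to 14 in C2C12 and 68 and 121 in NIH3T3.

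Some site groups that differed by at least 8-fold in the same direction were neighbours. Among 12639 site groups tested with at least 5 CPM in the higher line, 2677 were at least 8-fold higher in NIH3T3 and 950 in C2C12. Uninterrupted runs of at least 4 such groups, counted over both strands within 500 kb, numbered 15 for NIH3T3 and 2 for C2C12. With this many groups at 8-fold, runs also arise in a random order. Their number in a random order was not computed, so these counts do not show clustering. The run with the most site groups lay at chr2:74485106-74587336, where 8 groups on both strands within 102.2 kb had a summed level of 171 and 213 CPM in NIH3T3 and no read in untreated C2C12. After siPcf11 the same groups summed to 191 and 220.3 CPM in NIH3T3 and to 0 and 0.81 CPM in C2C12. At chr6:52111101-52152321, 4 groups within 41.2 kb summed to 150.2 and 153 CPM in NIH3T3 and 7.06 and 6.06 CPM in C2C12. The reverse held at chr15:102759245-102814875, where 5 plus-strand groups within 55.6 kb summed to 113 and 120 CPM in C2C12. No NIH3T3 library, untreated or after siPcf11, had a read in that run, and the 4 further C2C12 libraries summed to 106 to 136 CPM. The other C2C12 run, chr11:99978641-100232521, held 6 groups with 1029 and 987 CPM in C2C12 and 10.8 and 9.91 CPM in NIH3T3. Most of that sum came from 1 group with a mean of 878 CPM. The NIH3T3 run chr18:37346547-37641263 held 6 plus-strand groups with 53.1 and 47.4 CPM in NIH3T3 and 0.44 and 1.21 CPM in C2C12.

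Differences were spread unevenly over chromosomes. Among site groups with at least 5 CPM in both lines, the median log2 fold change was highest on chromosomes 19 and 7 (0.30 each), 17 (0.24) and 6 (0.21). It was lowest on chromosomes 13 (-0.52, 269 site groups), 14 (-0.44, 267 site groups) and 15 (-0.39, 343 site groups). In the siPcf11 libraries the medians were 0.24, 0.39, 0.41 and 0.16 on the first 4 and -0.68, -0.33 and -0.46 on the last 3. Over the 20 chromosomes the medians of both contrasts had a Pearson's r of 0.93, given as a description, since lines and position lists are shared. Between the C2C12 experiments the medians ran from -0.07 to 0.05. In windows of 5 Mb with at least 15 site groups (195 windows), the lowest median was -1.13, at 95 to 100 Mb of chromosome 9, and the highest 0.92, at 125 to 130 Mb of chromosome 8. The siPcf11 medians of these windows were -1.20 and 0.68.

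**Figure D3:**
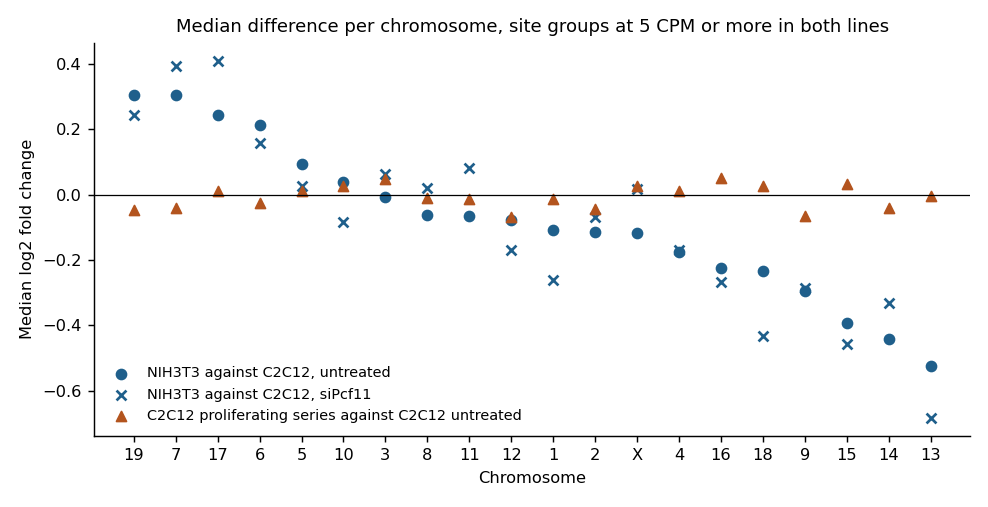
Median log2 fold change of site groups with at least 5 CPM in both lines, per chromosome (1 point per comparison), for NIH3T3 against C2C12 in untreated libraries (circles) and siPcf11 libraries (crosses), and for 2 C2C12 experiments (triangles). The contrasts of lines run from 0.30 on chromosome 19 to -0.52 on chromosome 13 in untreated libraries, while the C2C12 experiments stay between -0.07 and 0.05.

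The lines also differed in which poly(A) site they used. For each site group with at least 2 sites, the 2 most read sites formed a pair, each with at least 5% of the reads of the group, and distal use was the percentage of the reads of the pair at the downstream site. Of 4035 pairs tested, 1308 differed between lines (32.4%; edgeR's diffSpliceDGE, adjusted p under 0.05). Distal use was higher in NIH3T3 for 663 (16.4%) and lower for 645 (16%). The change was at least 20 points for 518 and 478 of them, and at least 50 points for 148 and 141. The median absolute change over all pairs was 14.3 points, against 4.21 and 5.06 points between the 2 libraries of C2C12 and of NIH3T3. It was 3.72 points between the C2C12 experiments, where 6 of 4484 pairs (0.134%) passed the test, 3 in each direction (0.0669%), and 209 had an unadjusted p under 0.05. With proliferating C2C12 cells in place of the C2C12 controls, 1524 of 4299 pairs (35.5%) differed from NIH3T3, 795 to distal (18.5%) and 729 to proximal sites (17%) in NIH3T3.

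The siPcf11 libraries showed the same contrast with fewer calls. There, 378 of 3393 pairs (11.1%) differed between lines, 198 to distal (5.84%) and 180 to proximal sites (5.31%) in NIH3T3, with a median absolute change of 13.7 points. Of 3259 pairs tested in both contrasts, 184 were called to distal and 157 to proximal sites both times and 0 in opposite directions. The shared calls were 30.5% of those in untreated cells and 91.4% of those after siPcf11. Across these pairs, which are not independent replicates, the changes had a Pearson's r of 0.84 and a Spearman's rho of 0.81. The interaction of line and siPcf11 called 2 of 3270 pairs (0.0612%; edgeR, adjusted p under 0.05), and 169 had an unadjusted p under 0.05. The siPcf11 count rested on single libraries: it was 57 without the first and 33 without the second siPcf11 C2C12 library, and 1055 without the first and 838 without the second siPcf11 NIH3T3 library.

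How positions were merged moved the number of called pairs. With identical positions only, 2215 of 4281 pairs were called, 1105 to distal and 1110 to proximal sites. In the fit as reported, pairs whose 2 sites were each listed at 1 position in every library were called in 961 of 2972 cases (32.3%). Pairs with a site merged from several positions were called in 347 of 1063 cases (32.6%). Among pairs under 100 nt apart the shares were 27.7% and 28.0%. When every site of a group entered the test rather than 2, 3842 of 11333 sites (33.9%) changed their share of the group, 1878 up and 1964 down in NIH3T3.

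Calls in each direction were close in number over all pairs, at 663 to distal and 645 to proximal sites, but with gaps of at most 2 kb they were 521 and 594. Their split by distance is given as counts, and differences between distance classes were not tested. Pairs under 200 nt apart were called in 28.0% of 983 cases, 131 to distal and 144 to proximal sites in NIH3T3. Pairs 200 to under 1000 nt apart were called in 32.9% of 1348 cases, 200 to distal and 244 to proximal. Pairs 1000 to under 2000 nt apart were called in 34.5% of 756 cases, 132 to distal and 129 to proximal. Pairs at least 2000 nt apart were called in 34.6% of 948 cases, with 200 to distal against 128 to proximal sites. In this class mean distal use was 55.5% in NIH3T3 and 51.3% in C2C12, and the median change was 3.94 points. After siPcf11 the counts at that distance were 65 and 40, with a median change of 0.04 points. Sites this far apart were joined over gaps of up to 5 kb and can belong to different genes.

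**Figure D4:**
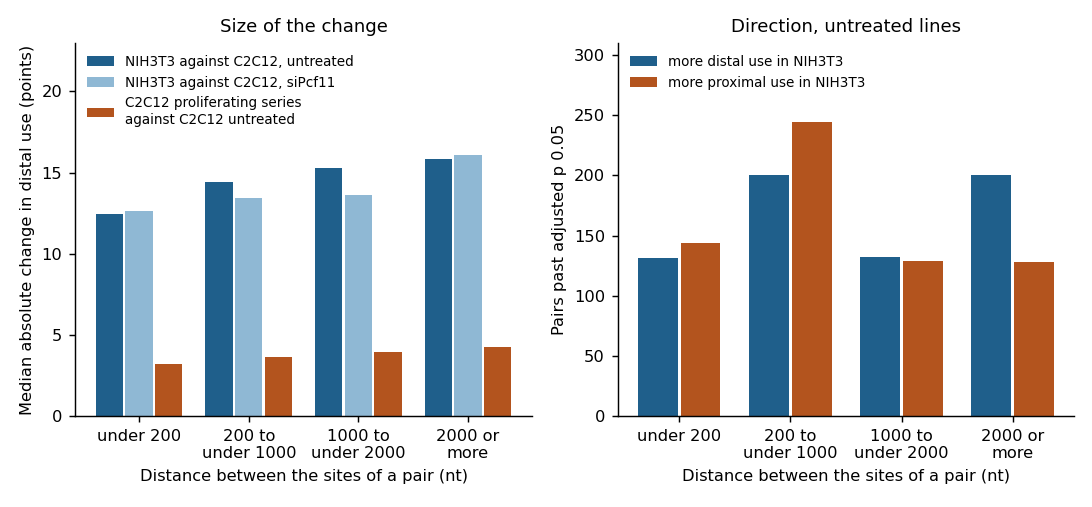
Left, median absolute change in distal use (percentage points, bars from 0) by the distance between the sites of a pair (nt), for lines in untreated libraries (dark blue), lines in siPcf11 libraries (light blue) and 2 C2C12 experiments (brown). Right, number of pairs called between untreated lines, with more distal (blue) or more proximal use in NIH3T3 (brown): 131 and 144 under 200 nt, 200 and 128 at 2000 nt or more.

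The averages of distal use lay close together. Over the 4035 pairs it was 52.7% and 52.9% in the C2C12 libraries, 53.3% and 53.5% in the NIH3T3 libraries, and 52.9% and 53.1% in the proliferating C2C12 libraries. Both NIH3T3 libraries lay above both C2C12 controls, by 0.561 points on average (exact two-sided permutation test, p = 0.33, the smallest that 2 against 2 libraries can give). With gaps of at most 2 kb the difference reversed to -0.466 points.

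Switches of the main site were more frequent between lines than between replicates. Among site groups with at least 50 reads in each library and the same main site in both replicates, the main site differed between C2C12 and NIH3T3 in 384 of 3307 (11.6%). It lay farther downstream in NIH3T3 for 195 and in C2C12 for 189. Between the C2C12 experiments it differed in 32 of 3370 (0.950%), and between single replicate libraries in 3.17% to 4.38% of 3563 groups. Site groups had on average 2.01 sites with at least 5% of reads in each NIH3T3 library, against 2.04 and 2.02 in the C2C12 controls. The main site held 80.2% to 80.5% of reads in these 4 libraries.

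A shift in distal use can come with a higher level at 1 site, a lower level at the other, or both. Of the 663 pairs shifted to the distal site in NIH3T3, 183 had the distal site at least 2-fold higher and the proximal site at least 2-fold lower. A further 233 had only the former, 219 only the latter and 28 neither. Of the 645 pairs shifted to the proximal site, 144 had both, 142 only a higher proximal site, 332 only a lower distal site and 27 neither. The level of the whole site group was not called in 187 and 196 of these pairs, respectively.

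Of 2043 tested pairs with at least 50 reads in each of the 4 libraries, 795 were called, 391 to distal and 404 to proximal sites. The largest change to the distal site was at chr12 (plus strand), between sites at 114392090 and 114403669, 11579 nt apart. Distal use was 2.86% and 2.67% in C2C12 and 100% and 99.5% in NIH3T3 (adjusted p = 4.48e-27, edgeR's diffSpliceDGE). The proximal site had a mean of 1203 CPM in C2C12 and 0.15 CPM in NIH3T3, and the distal site 34.2 and 58.6 CPM. The whole site group was thus lower in NIH3T3, with a log2 fold change of -3.80. With gaps of at most 2 kb these sites were in separate groups. On chr2 (plus strand) the site at 130105044 had no read in either C2C12 control, whose reads of the pair were all at 130103508. It took 93.5% and 96.7% of the pair in NIH3T3, from 262 and 212 reads.

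On chr5 (plus strand) the site group of 121655154 and 121658975 had a log2 fold change of -0.12 between lines, which was not called (adjusted p = 0.44, edgeR). Distal use was 7.89% and 14.8% in the C2C12 controls and 100% and 99.8% in NIH3T3. In C2C12 it varied with the experiment, from 31.5% and 31.4% in the proliferating series (adjusted p = 0.000614 against the controls, edgeR) to 52.7% and 56.8% after siPcf11. No C2C12 library reached the NIH3T3 range. On chr4 (plus strand) the sites at 151706589 and 151708176 gave 13.5% and 11.9% in C2C12 and 93.5% and 96.5% in NIH3T3. There the proximal site had a mean of 693 CPM in C2C12 and 12.8 CPM in NIH3T3, and the distal site 101 and 238 CPM. On chr16 (plus strand), distal use of 37834200 and 37836606 was 5.17% and 1.59% in C2C12 and 82.5% and 89.1% in NIH3T3. On chr5 (plus strand), distal use of 74489678 and 74490357 was 10.8% and 11.9% in C2C12 and 95.2% and 96.6% in NIH3T3.

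The largest change to the proximal site was at chr7 (minus strand), between sites at 125252583 and 125252557. Distal use was 100% in all 6 C2C12 libraries and 10.2% in both untreated NIH3T3 libraries, where the proximal site had a mean of 308 CPM. These sites lie 26 nt apart, just over the distance within which positions were merged, and the proximal one had no read in C2C12. On chr2 (plus strand) distal use of 164290461 and 164290845 was 81.9% and 84.8% in C2C12 and 2.05% and 3.54% in NIH3T3 (adjusted p = 4.89e-17, edgeR's diffSpliceDGE). The proximal site had a mean of 6.34 CPM in C2C12 and 102 CPM in NIH3T3, and the distal site 32.0 and 2.91 CPM. On chr4 (plus strand) the sites at 6322802 and 6323267 gave 83.7% and 85.0% in C2C12 and 7.10% and 5.96% in NIH3T3. Here too the proximal site was higher in NIH3T3 (8.69 CPM in C2C12 and 105 CPM in NIH3T3) and the distal site lower (46.8 and 7.26 CPM).

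On chr5 (plus strand) the site at 77396532, 187 nt beyond 77396345, had a mean of 83.7 CPM in C2C12 and 0.31 CPM in NIH3T3. Distal use was 76.8% and 78.0% in C2C12 and 0.67% and 0.59% in NIH3T3. On chr11 (minus strand), distal use of 100270058 and 100269781 was 93.3% and 84.8% in C2C12 and 9.83% and 15.3% in NIH3T3. On chr2 (plus strand), distal use of 4534984 and 4535087 was 89.1% and 87.0% in C2C12 and 3.70% and 14.8% in NIH3T3. In each of these 12 pairs, every C2C12 library, siPcf11 and proliferating ones included, lay on the same side of every NIH3T3 library. Of the 12, 11 passed the test in the siPcf11 contrast too (adjusted p from 3.13e-06 to 0.0288, edgeR), and the pair at chr5:121655154 did not (adjusted p = 0.159).

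**Figure D5:**
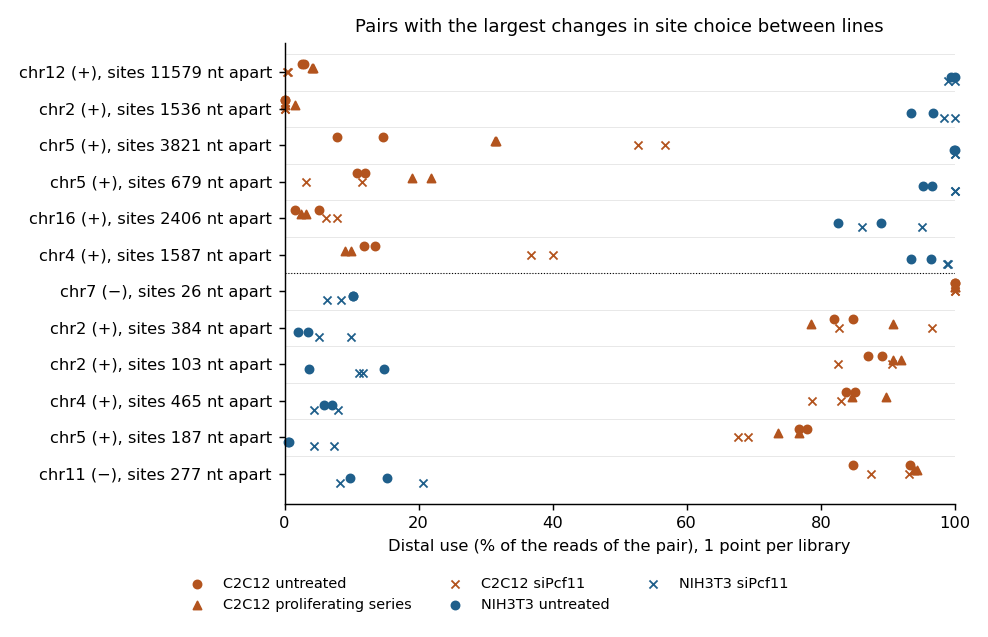
Distal use (percent of the reads of the pair) of the 12 pairs with the largest changes, 1 point per library in 10 libraries. Pairs above the dotted line had more distal and those below it more proximal use in NIH3T3 (blue), and the C2C12 libraries (brown) are closest to them at the chr5 pair whose sites lie 3821 nt apart, with 31.4% to 56.8% in the proliferating and siPcf11 libraries.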

How the data were processed

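The deposited files hold raw read counts per poly(A) site, which the authors made from 3'READS libraries. Cutadapt, Bowtie2, STAR and build mm9 are named per the submitters' processing notes, and how sites were clustered is not given in the sources used here. Reads without molecular identifiers were counted, so intervals and floors cover counting error only. Here, positions within 24 nt were merged, sites with at least 1 CPM in at least 2 of 10 libraries were kept (98.18% to 98.30% of reads), and sites were chained over gaps of up to 5 kb. Levels were tested with edgeR 4.0.16 (quasi-likelihood, TMM, filterByExpr) and site choice with diffSpliceDGE, with Benjamini-Hochberg adjustment over all features tested and a threshold of 0.05. DESeq2 1.42.0 was an alternative.

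Named site groups were, of those called with at least 50 CPM in the higher line and no overlap, the 10 with the largest fitted log2 fold change in each direction, and the 5 most read in each line. Named pairs were the 6 largest changes in each direction among called pairs with at least 50 reads in each of the 4 libraries. Members and lists were chosen with earlier results of these data known. Lists of genes could not be matched to positions and were not analysed. The 4 libraries are all the samples of the comparison. Other samples of the series were not used, apart from the 6 further libraries of the lines and the untreated 4T1 libraries. The tests were run on simulated data in which few features changed. With counts simulated for 12306 site groups, 69.5% of 200 changed 2-fold were recovered with 11 false calls. With 3971 pairs, 29.6% of 196 changed 4-fold in odds were recovered with 3 false calls. In the data 80.2% of site groups and 32.4% of pairs were called, so these figures do not give recovery or false calls there.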

Additional observations from a re-analysis of the deposited data

Results flagged for a closer look

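The level of chr3:90406625-90409964 (plus strand) differed between the untreated and siPcf11 contrasts of lines by an interaction test. The log2 fold change of NIH3T3 against C2C12 was -0.51 in untreated and -1.74 in siPcf11 libraries, an interaction of -1.24 (edgeR, adjusted p = 0.0487). The siPcf11 NIH3T3 libraries had 4998 and 2850 CPM, and their part in the difference was not tested. The pair on chr12 at 114392090 and 114403669 also differed between the contrasts (diffSpliceDGE in edgeR, adjusted p = 0.0275). Distal use in C2C12 was 2.86% and 2.67% in untreated libraries, 0.33% and 0.53% after siPcf11 and 4.26% and 4.14% in the proliferating series. In NIH3T3 it was at least 99.0% in all 4 libraries.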

How the results depend on the processing

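The count of site groups differing in level stayed within 1.5 times 10684 under every alternative run (9381 with DESeq2, 15250 of 22766 with no filter on low counts, 10144 to 11110 without 1 library). Called pairs (1308) moved to 690 with the siPcf11 libraries in the same fit and to 2215 with identical positions only, and single sites (3842) to 2007 and 6823. Without 1 library, pairs ranged from 890 to 1243 and single sites from 2457 to 3512. With identical positions only, called pairs were 1248 in the siPcf11 contrast and 2456 for NIH3T3 against the proliferating series. Without 1 library the siPcf11 pairs ranged from 33 to 1055, and between C2C12 experiments levels ranged from 1254 to 1829 and pairs from 0 to 9. The difference in mean distal use reversed to -0.466 points with gaps of at most 2 kb. The mitochondrial plus-strand group gave 0.12, not called, with gaps of at most 2 kb and with sites merged within 50 nt. Both settings change which sites that group holds, so this is no reversal of the strand. The group chr3:90406625 reversed to 0.53 with gaps of up to 10 kb, which joins it to its neighbour. In all, 443 of 447 values for named site groups and 175 of 175 for named pairs kept their direction and call. The 4 that did not are these 3 changes of sign at site groups and the mitochondrial plus-strand group with the siPcf11 libraries in the same fit (-0.37, no longer called). Settings under which the sites of a named pair did not form a pair gave no value. Apart from the most read groups, the named items were picked as the largest called differences. The number of values that held was thus largely set by that choice and is no measure of robustness. Where no cause is named, it was not tested. Replicate numbers did not pair the libraries (correlation of deviations 0.03). With the replicate block 10428 site groups, 1291 pairs and 3663 single sites were called, and 21 pairs between C2C12 experiments. Thinning to the shallowest library left 1212 called pairs. In simulated pairs, of which far fewer changed than were called in the data, 29.6% of changes of 4-fold in odds were recovered.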
